A study of Mus musculus with 6 samples.

Results

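The genes described here encode the SR proteins (*Srsf* symbols), the heterogeneous nuclear ribonucleoproteins (hnRNPs, *Hnrnp* symbols) and the numbered RNA-binding motif proteins (*Rbm* symbols), 3 families rich in factors that help to choose splice sites. They were taken from the deposited table by symbol and total count. Of its 24532 genes, 71 had such a symbol, and the 64 with 60 or more read counts summed over the 6 libraries were kept: 10 SR, 20 hnRNP and 34 RBM genes. The rule uses no difference between the groups. Genes whose RBM symbol carries a letter in place of the number, such as *Rbmx* and *Rbms1*, fall outside it.

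In pre-mRNA splicing, SR proteins bind exons through RNA recognition motifs and draw the spliceosome to nearby splice sites through tails rich in arginine and serine. The hnRNPs coat nascent transcripts and often keep exons out, while RBM proteins are a mixed set that includes spliceosome components, muscle splicing regulators and cold-inducible proteins. Many SR and hnRNP genes limit their own expression through alternative exons that send the mRNA to nonsense-mediated decay, and a count per gene, as used here, does not separate such isoforms from the coding ones.

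RNA came from the gastrocnemius of C57BL/6 male mice about 20 weeks old, 3 labelled WT (*Sirt6* flox/flox) and 3 labelled *Sirt6* KO (*Myl1-Cre*; *Sirt6* flox/flox), with 1 library per animal. Both groups thus carried the floxed alleles, and the control animals had no Cre. The *Myl1* promoter that drives Cre works mainly in postmitotic fast fibers, so the other cells of the muscle keep the gene. The comparison asks how the mRNA of these genes differed between the 2 genotypes in whole muscle, where fewer cells of a type and less RNA per cell cannot be told apart.

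Before the results, several facts of the libraries bear on them. The libraries held between 44845763 and 63016899 counts. *Sirt6* itself went against its label. WT libraries 1, 2 and 3 had 2.77, 2.23 and 2.88 TMM-normalized CPM of it (its share of a library's counts, scaled to a common library size), and libraries KO 1, 2 and 3 had 7.81, 7.44 and 6.68 CPM (log2 fold change 1.48 ± 0.17 (SE), adjusted p = 0.0113, edgeR's quasi-likelihood F test, Benjamini-Hochberg adjusted). A count per gene does not separate the floxed exons from the others, and why *Sirt6* was higher was not tested. The groups are named by their labels, and every direction given here rests on those labels. Markers of fast myofibers, the tissue's main cell type, summed to 165900, 177300 and 262600 CPM in the WT libraries and to 256200, 250200 and 285500 CPM in those labelled KO, so that WT library 3 lay among the latter and WT libraries 1 and 2 below them all. Markers of slow myofibers summed to 7301, 8165 and 1388 CPM in the WT libraries and to 1671, 4792 and 2070 CPM in the libraries labelled KO, and erythroid markers ran the same way, so that WT library 3 stood apart from the other two of its group. Of 5 satellite cell markers 3 rose, and their sum was 21.4, 21.7 and 28.0 CPM in the WT libraries against 47.6, 35.5 and 44.4 CPM in those labelled KO, without overlap. Of 6 Schwann cell markers 1 fell. No marker of endothelial cells, macrophages, fibroblasts, adipocytes, erythroid cells or either fiber type was called, and no marker in any list was at 0. The part of these cells in the results was not tested.

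Most of the splicing factor genes that changed were lower in the libraries labelled KO. Of the 64 genes 15 fell (23.4%) and 3 rose (4.69%) at an adjusted p under 0.05, beside 8.39% lower and 7.85% higher among the 13801 genes tested. The remaining 46 did not pass. Among the genes that fell were *Srsf10*, *Srsf3* and *Srsf7*, the hnRNP genes *Hnrnpa1*, *Hnrnpa2b1*, *Hnrnpa3* and *Hnrnph1*, and *Rbm20*, the regulator of titin splicing. The 3 that rose were *Srsf5*, *Srsf4* and *Hnrnpa0*. Fitted log2 fold changes ran from -1.25 to 0.76, 46 negative and 18 positive, with a median of -0.204 against -0.021 over all genes tested. All 64 passed the filter on low counts. In 26 of them every library labelled KO was below every WT library, and in 7 every one was above, beside 19.6% and 20.3% of all genes tested, which makes 51.6% against 40.0% without overlap in either direction. An exact permutation test over the libraries, two-sided, gave p = 0.1 for each of these 33, the smallest p that 3 libraries against 3 allow. The calls, more than the fold changes, depended on single libraries. Each of the 18 kept its direction in all 6 fits that left out a library, with log2 fold changes of -0.74 to -0.70 for *Srsf10* and -1.08 to -0.94 for *Rbm20*, for example. Without the library labelled KO 1, or without the one labelled KO 3, edgeR called 0 of the 64, while 24 and 22 of them (37.5% and 34.4%) had an unadjusted p under 0.05, beside 25.7% and 24.3% of all genes. At the adjusted threshold the first of these fits, on 5 libraries, called 6 genes higher and 2 lower in the whole table, and the second 8 higher and 5 lower. The calls also moved with base composition. With each library's trend over GC content removed, 4 fell and 3 rose, beside 3.54% and 3.43% of all genes, or 10.9% against 6.97% in either direction.

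**Figure D1:**
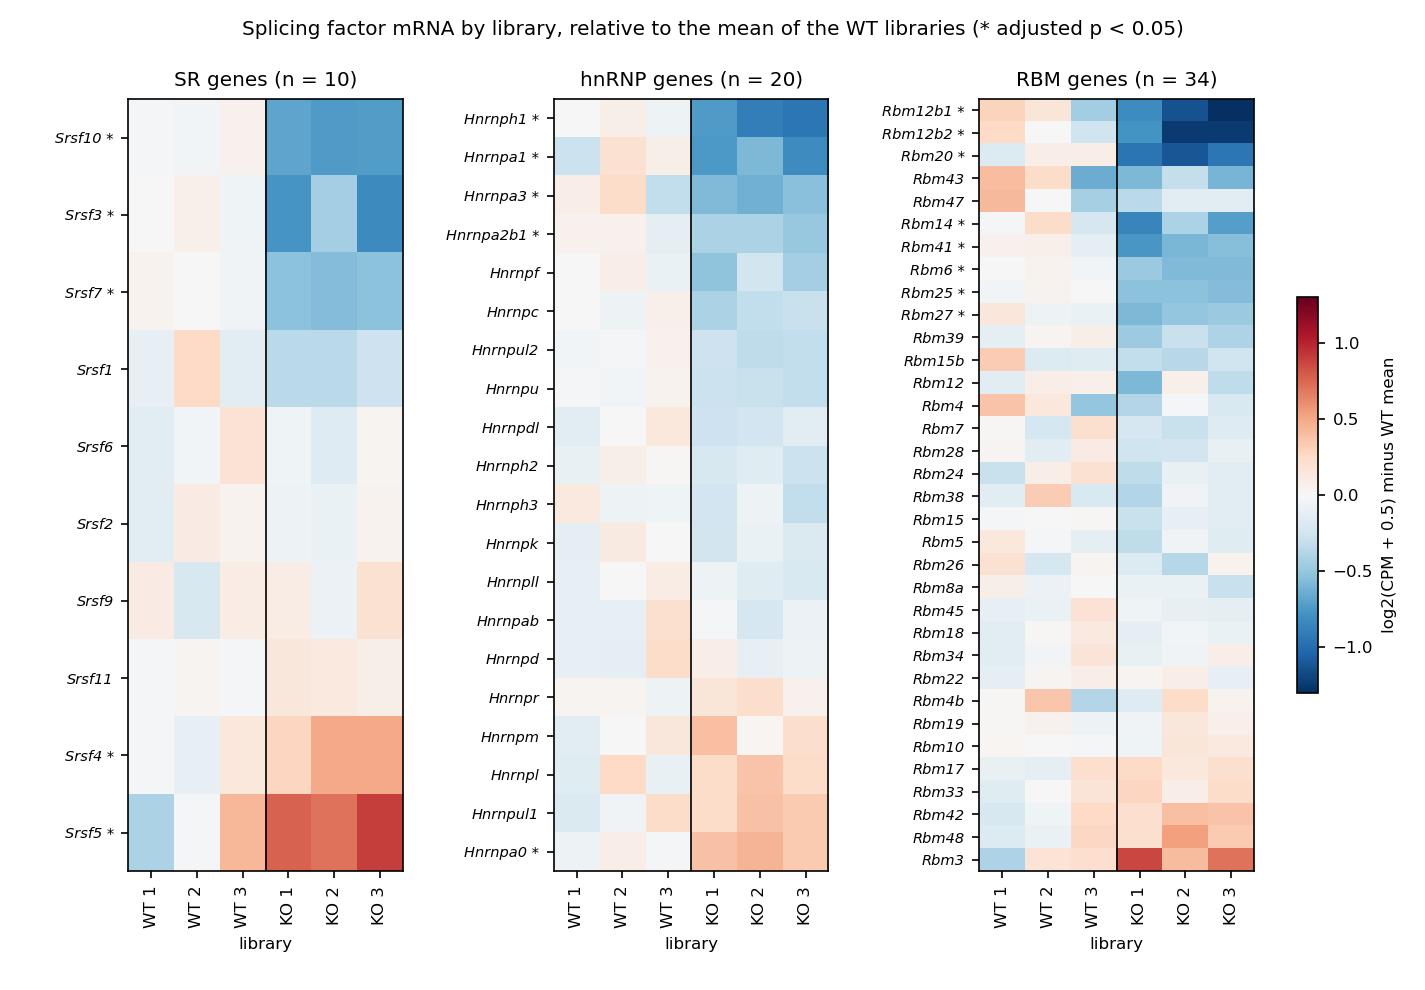
Level of each of the 64 genes in each library, as log2(CPM + 0.5) minus the mean of the WT libraries, with 1 row per gene, ordered by fitted fold change within each family, and the 6 libraries as columns; asterisks mark an adjusted p under 0.05 (edgeR). The 15 genes that fell are blue in all 3 libraries labelled KO, and most other rows stay pale.

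Only 5 of the 64 were called in the same direction with and without the correction for GC content: *Srsf10*, *Rbm6*, *Rbm14* and *Rbm20*, which fell, and *Srsf5*, which rose. The calls did depend on single libraries. Of the 6 fits that left out a library, 4 called *Srsf10* and 4 called *Rbm20*, while *Rbm6*, *Rbm14* and *Srsf5* were each called in 1. The promoters of these genes are shown because their calls did not depend on the correction for GC content. RefSeq promoters (GRCm38.p6, 250 bases before to 50 bases after the start that the promoter table uses) were held for all but *Rbm20*. For *Srsf10*, *Srsf5* and *Rbm6* that start lies inside the outer bounds of the gene, and the *Srsf10* and *Rbm6* windows do so as a whole. The study follows CREB, which binds the cAMP response element TGACGTCA, so this element, its first 5 letters TGACG and the CCAAT box (CCAAT) were searched on both strands. TGACG lies within TGACGTCA, and letters in capitals below mark a match on either strand.
*Srsf10*, chr4:135855821-135856120, plus strand: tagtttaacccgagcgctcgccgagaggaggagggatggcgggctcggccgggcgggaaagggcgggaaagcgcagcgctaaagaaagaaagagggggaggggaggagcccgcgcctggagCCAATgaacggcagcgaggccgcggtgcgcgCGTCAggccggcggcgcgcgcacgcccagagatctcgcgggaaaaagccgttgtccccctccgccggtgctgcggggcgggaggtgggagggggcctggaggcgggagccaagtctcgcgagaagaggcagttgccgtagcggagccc
*Srsf5*, chr12:80945249-80945548, plus strand: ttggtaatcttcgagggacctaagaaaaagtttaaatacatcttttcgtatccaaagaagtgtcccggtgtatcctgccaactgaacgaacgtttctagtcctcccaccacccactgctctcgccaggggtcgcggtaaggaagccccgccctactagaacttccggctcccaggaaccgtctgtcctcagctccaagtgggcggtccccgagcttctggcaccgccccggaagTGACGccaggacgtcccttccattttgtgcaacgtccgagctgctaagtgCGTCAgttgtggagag
*Rbm6*, chr9:107872770-107873069, minus strand: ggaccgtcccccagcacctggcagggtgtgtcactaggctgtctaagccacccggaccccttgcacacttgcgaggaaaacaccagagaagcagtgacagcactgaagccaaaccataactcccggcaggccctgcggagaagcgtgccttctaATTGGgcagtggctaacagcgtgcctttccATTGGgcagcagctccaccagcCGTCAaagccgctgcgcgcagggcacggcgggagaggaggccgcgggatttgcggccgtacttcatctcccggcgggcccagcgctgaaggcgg
*Rbm14*, chr19:4811585-4811884, minus strand: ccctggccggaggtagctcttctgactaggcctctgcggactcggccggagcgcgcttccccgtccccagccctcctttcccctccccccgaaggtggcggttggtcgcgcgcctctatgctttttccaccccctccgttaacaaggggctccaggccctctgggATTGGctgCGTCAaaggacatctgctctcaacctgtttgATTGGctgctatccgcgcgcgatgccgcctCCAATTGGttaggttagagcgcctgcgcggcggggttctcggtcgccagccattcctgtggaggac
All 4 hold TGACG and none holds the whole element. The *Rbm14* window is the richest in CCAAT, with 4 matches of which a pair share letters, and the *Srsf5* window has none. Of the 55 genes of the 3 families with a promoter in the table, 30 (54.5%) held TGACG, beside 34.3% of the 10911 tested genes with a promoter and 20.8% of all 32851 promoters. CCAAT was in 29 (52.7%), beside 42.6% and 37.4%. The whole element was in 0 of the 55, beside 3.40% and 1.79%. Among the 11 genes that fell and had a promoter, 7 held TGACG (63.6%) and 9 held CCAAT (81.8%). Of the 3 that rose, 2 held TGACG (66.7%) and 1 held CCAAT (33.3%). A match describes these letters only, and the absence of one says no more than that they are not in this window.

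Of the 10 SR genes, 3 fell (30.0%) and 2 rose (20.0%), beside 8.39% and 7.85% of all genes tested. The 10 had a median log2 fold change of -0.052. *Srsf10* (NCBI gene 14105, chr4:135855752-135869908), whose product turns from activator to repressor of splicing when it loses its phosphates, stood at 46.2, 45.5 and 48.4 CPM in the WT libraries against 28.8, 27.8 and 28.1 CPM in those labelled KO. Each library labelled KO was thus well below the lowest WT library, and neither group spread by more than a few CPM (log2 fold change -0.73 ± 0.09 (SE), adjusted p = 0.0128, edgeR). It was called in 4 of the 6 fits that left out a library. With the GC trend removed its log2 fold change was -0.45 (adjusted p = 0.0372, edgeR).

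*Srsf3* encodes the smallest SR protein, and its product and that of *Srsf7* also link splicing to mRNA export. *Srsf3* (NCBI gene 20383, chr17:29032660-29043372) was at 85.9, 90.5 and 82.8 CPM in the WT libraries and 50.7, 63.3 and 48.4 CPM in those labelled KO, of which library 2 came closest to the WT range (log2 fold change -0.68 ± 0.13 (SE), adjusted p = 0.0197, edgeR). For *Srsf7* (NCBI gene 225027, chr17:80200080-80207369) the values were 49.7, 47.97 and 46.7 CPM and 33.2, 32.5 and 33.1 CPM, in tight groups (log2 fold change -0.55 ± 0.09 (SE), adjusted p = 0.0151, edgeR). Both genes lost the call once the GC trend was removed, at log2 fold changes of -0.38 (adjusted p = 0.108) and -0.27 (adjusted p = 0.0994, edgeR).

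*Srsf5*, an activator of exon inclusion, went the other way. It measured 61.6, 80.8 and 110.3 CPM in the WT libraries, the widest spread among the SR genes, and 139, 134 and 153 CPM in the libraries labelled KO. The lowest of these still exceeded WT library 3 (log2 fold change 0.76 ± 0.21 (SE), adjusted p = 0.0470, edgeR). *Srsf5* (NCBI gene 20384, chr12:80945495-80950507) has among the lowest GC contents of the 64 genes, 40.1% in its longest transcript, and removing the GC trend widened its difference to 1.08 (adjusted p = 0.0343, edgeR). *Srsf4*, which encodes a larger SR protein and was added to the named genes after its values were seen, rose from 21.99, 20.9 and 24.7 CPM to 27.4, 31.8 and 31.8 CPM, without overlap (log2 fold change 0.43 ± 0.12 (SE), adjusted p = 0.0465, edgeR). With the GC trend removed it did not pass (log2 fold change 0.29, adjusted p = 0.140). The ratio of *Srsf5* to *Srsf3* CPM, a pair also picked after the values were seen and read between libraries only, was lower throughout the WT libraries (0.718, 0.893 and 1.33) than in those labelled KO (2.75, 2.12 and 3.17). Since *Srsf5* was higher and *Srsf3* lower without overlap, the order of this ratio was fixed in advance and is no further observation.

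The other SR genes did not pass the test. *Srsf1*, which encodes the founding member of the family, was at 101, 130.5 and 98.8 CPM in the WT libraries and 85.9, 85.4 and 90.4 CPM in those labelled KO. WT library 2 was high, and the groups did not overlap (log2 fold change -0.34 ± 0.13 (SE), adjusted p = 0.120, edgeR). *Srsf2*, the nuclear speckle protein SC35, was at 64.9, 77.4 and 74.5 CPM against 68.98, 67.96 and 74.3 CPM, and *Srsf6* at 78.6, 85.3 and 99.3 CPM against 83.9, 77.96 and 89.7 CPM. Both sets of groups overlapped. *Srsf11* was at 52.04, 54.1 and 52.5 CPM against 58.7, 57.6 and 55.9 CPM, a small step without overlap (log2 fold change 0.12 ± 0.09 (SE), adjusted p = 0.372, edgeR). *Srsf9*, the SR gene with the lowest level, was at 8.62, 6.83 and 8.51 CPM against 8.51, 7.52 and 9.20 CPM, and its groups overlapped. The SEs of the 5 fitted differences lay between 0.09 and 0.15 on the log2 scale.

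Per length, *Srsf5* had the highest level of the SR genes over the 6 libraries. Its FPKM (fragments per kilobase, scaled to library size) was 48.8 ± 9.66 (SD, n = 3) in the WT libraries, followed by *Srsf2* at 35.03 ± 3.03 and *Srsf3* at 29.6 ± 3.69, which were no further apart than the sum of their SDs. At the low end, *Srsf9* was at 6.08 ± 0.988 FPKM.

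Of the 20 hnRNP genes, 4 fell (20.0%) and 1 rose (5.0%), beside 8.39% and 7.85% of all genes tested. The 20 had a median log2 fold change of -0.217. *Hnrnph1* (NCBI gene 59013, chr11:50375257-50386528), whose product binds runs of G, had the smallest adjusted p of the family. It stood at 172, 182 and 166 CPM in the WT libraries against 104, 92.4 and 90.2 CPM in those labelled KO, a fitted ratio of 0.551 (log2 fold change -0.86 ± 0.11 (SE), adjusted p = 0.0131, edgeR). The groups were far apart, and it was called in 4 of the 6 fits that left out a library. Its transcript has the lowest GC content of the 64 genes, 37.1%, and with the GC trend removed it no longer passed, at -0.46 (adjusted p = 0.0512, edgeR).

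The A/B group of hnRNPs, which mostly oppose SR proteins at splice sites, held the other 3 that fell. *Hnrnpa1* (NCBI gene 15382, chr15:103239943-103246698) was at 82.2, 114 and 105 CPM in the WT libraries, of which library 1 was the lowest, and at 59.2, 66.2 and 56.2 CPM in those labelled KO (log2 fold change -0.73 ± 0.15 (SE), adjusted p = 0.0222, edgeR). *Hnrnpa2b1* (NCBI gene 53379, chr6:51460434-51470048) was at 451, 449.9 and 399.9 CPM against 324, 326 and 308 CPM (log2 fold change -0.44 ± 0.12 (SE), adjusted p = 0.0437, edgeR), and *Hnrnpa3* (NCBI gene 229279, chr2:75659105-75669407) at 187, 208 and 141 CPM against 118, 114 and 121 CPM (log2 fold change -0.60 ± 0.15 (SE), adjusted p = 0.0411, edgeR). None of the 3 overlapped between groups, though WT library 3 came close for *Hnrnpa3*. *Hnrnpa1* and *Hnrnpa3* have processed pseudogenes with which reads could have been shared, so their levels are uncertain to that extent. *Hnrnpa0*, the intronless member of the same group, named here after its value was seen, rose from 23.2, 25.9 and 24.04 CPM to 31.8, 33.2 and 31.04 CPM (log2 fold change 0.39 ± 0.10 (SE), adjusted p = 0.0368, edgeR). With the GC trend removed these 4 did not pass, at log2 fold changes of -0.55, -0.23, -0.28 and 0.20 in the same order.

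Several abundant hnRNP genes were lower without overlap yet did not pass the test. *Hnrnpu*, a nuclear scaffold protein, was at 171, 169 and 178 CPM in the WT libraries and 142, 141 and 138 CPM in those labelled KO (log2 fold change -0.30 ± 0.10 (SE), adjusted p = 0.0767, edgeR). *Hnrnpc*, which binds runs of U and packages pre-mRNA, was at 112, 107 and 117 CPM against 84.2, 89.9 and 91.6 CPM (log2 fold change -0.34 ± 0.10 (SE), adjusted p = 0.0571, edgeR). With the GC trend removed the log2 fold change of *Hnrnpu* was 0.00032, and that of *Hnrnpc* was -0.11. *Hnrnpu* also shares 1586 bases with *Cox20*, which fell (log2 fold change -0.57 ± 0.12 (SE), adjusted p = 0.0227, edgeR), and whether the counting used strand is not given in the sources used here.

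The groups overlapped for the other hnRNP genes named by the rule, apart from *Hnrnpr*. *Hnrnpk*, which binds C-rich RNA, was at 149, 175 and 162 CPM in the WT libraries and 136, 152 and 142 CPM in those labelled KO. *Hnrnpd*, which binds AU-rich elements, was at 43.3, 42.7 and 55.5 CPM against 49.9, 43.4 and 44.6 CPM. *Hnrnpm* was at 103, 113 and 125 CPM against 149, 116 and 133 CPM. *Hnrnpl*, which binds CA repeats, was at 46.8, 62.6 and 48.7 CPM against 61.97, 67.96 and 61.6 CPM, where WT library 2 lay among the libraries labelled KO. None of the 4 passed the test, with log2 fold changes between -0.18 and 0.28. *Hnrnpr* was at 24.5, 24.4 and 22.7 CPM against 26.6, 27.98 and 24.8 CPM, a narrow gap without overlap (log2 fold change 0.15 ± 0.10 (SE), adjusted p = 0.324, edgeR). It passed only with the GC trend removed (log2 fold change 0.44, adjusted p = 0.0480, edgeR).

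Per length, *Hnrnpa2b1* was the most abundant of all 64 genes, at 178 ± 28.96 FPKM (SD, n = 3) in the WT libraries. *Hnrnph1* at 72.3 ± 9.46, *Hnrnpa1* at 53.7 ± 7.46 and *Hnrnpk* at 52.8 ± 5.42 FPKM followed within the family. *Hnrnpa1* and *Hnrnpk* did not differ from each other beyond their spread. *Hnrnpr* was the lowest of the family at 2.79 ± 0.388 FPKM.

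**Figure D2:**
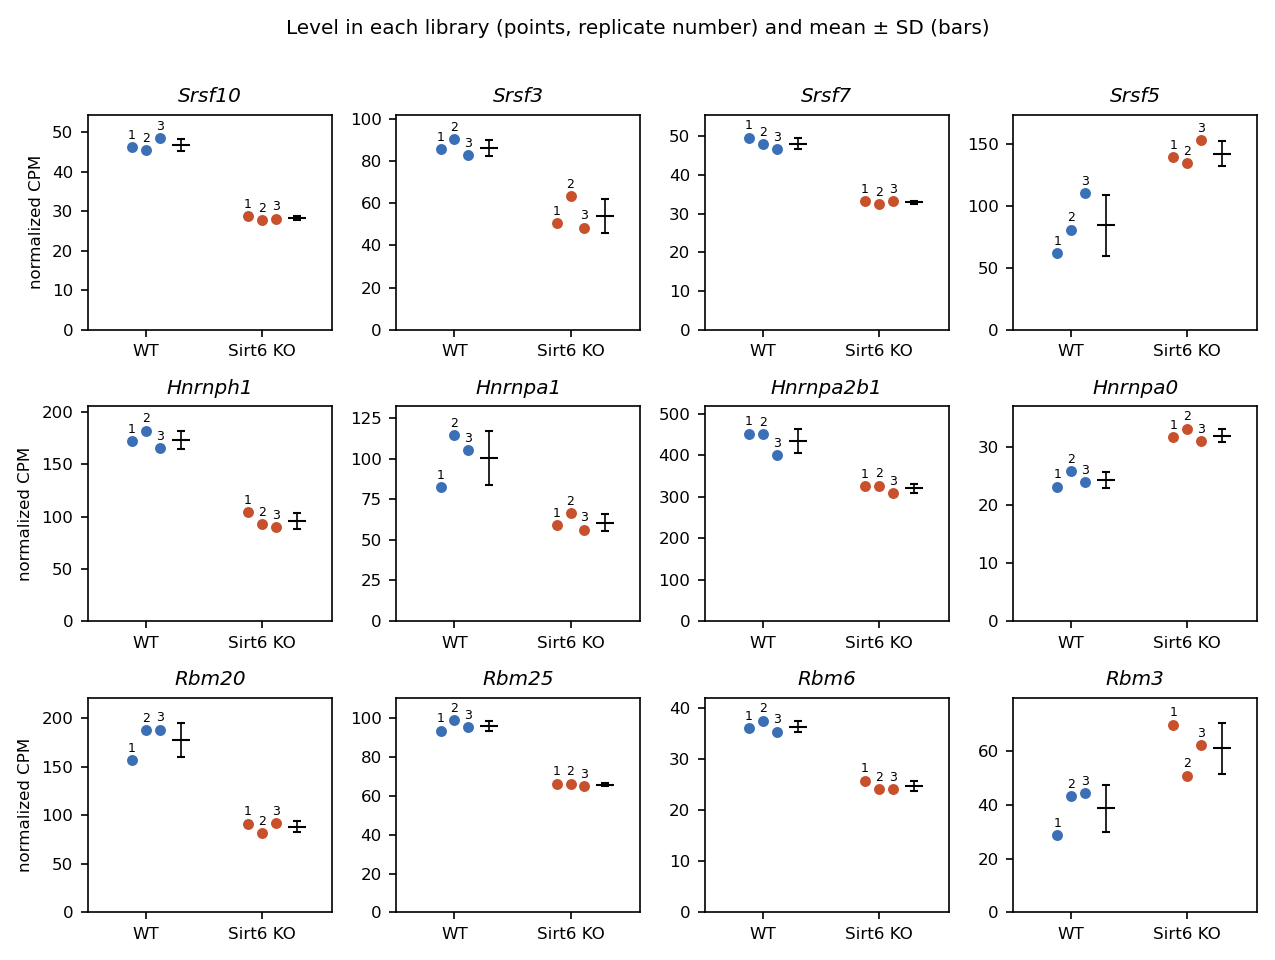
TMM-normalized CPM of 12 genes in each of the 6 libraries (points, with the replicate number) and the mean ± SD of each group (bars, n = 3); each vertical axis starts at 0. In the 9 panels of genes that fell, in those of *Srsf5* and *Hnrnpa0*, which rose, and in that of *Rbm3*, which did not pass the main test, no point of a group lies within the range of the other.

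Of the 34 RBM genes, 8 fell (23.5%) and 0 rose by edgeR, beside 8.39% and 7.85% of all genes tested. The 34 had a median log2 fold change of -0.204. Higher levels in the libraries labelled KO had an unadjusted p under 0.05 for 1 of them, and DESeq2 called 1 higher and 9 lower. *Rbm20* (NCBI gene 73713, chr19:53660989-53867083) had the smallest adjusted p of the 64. Its product works in striated muscle, where it represses exons of titin and other sarcomere genes. It was at 157, 188 and 188 CPM in the WT libraries and 91.2, 81.6 and 92.1 CPM in those labelled KO, so that the highest of the second group lay far below the lowest of the first. The fitted ratio was 0.498 (log2 fold change -1.01 ± 0.12 (SE), adjusted p = 0.0123, edgeR), and it was called in 4 of the 6 fits that left out a library. With a GC content of 54.9%, it lies in a range, from 50% upwards, where 12.5% of 6696 genes rose and 3.39% fell, and removing the GC trend took it to -1.19 (adjusted p = 0.0121, edgeR).

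Other muscle regulators among the RBM genes did not pass. *Rbm24*, which promotes inclusion of muscle exons, was at 149.6, 194 and 210.0 CPM in the WT libraries and 145, 170.3 and 165 CPM in those labelled KO. *Rbm38*, its close relative, was at 118, 164 and 113 CPM against 99.5, 126 and 118 CPM. Both overlapped between groups, with log2 fold changes of -0.21 ± 0.15 and -0.20 ± 0.17 (SE). The *Rbm20* to *Rbm24* CPM ratio, chosen after the values were seen, was higher throughout the WT libraries (1.05, 0.968 and 0.896) than in those labelled KO (0.630, 0.479 and 0.559). This ratio repeats the gap in *Rbm20* and is no further observation. Per length, *Rbm38* led the RBM genes at 68.9 ± 17.1 FPKM (SD, n = 3) in the WT libraries, ahead of *Rbm24* at 52.4 ± 4.94, a gap within the spread of *Rbm38*; *Rbm20* was at 24.8 ± 1.74.

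The pair *Rbm12b1* and *Rbm12b2* had the largest fitted decreases. *Rbm12b1* (NCBI gene 72397, chr4:12138957-12148922) was at 9.60, 8.76 and 5.57 CPM in the WT libraries and 4.19, 3.27 and 2.56 CPM in those labelled KO (log2 fold change -1.25 ± 0.27 (SE), adjusted p = 0.0257, edgeR). *Rbm12b2* (NCBI gene 77604, chr4:12089370-12105618) was at 11.9, 9.88 and 8.15 CPM against 5.55, 3.86 and 3.87 CPM (log2 fold change -1.17 ± 0.21 (SE), adjusted p = 0.0184, edgeR). The 2 genes are close paralogs side by side, and reads could have been split between them, so they may not be separate observations. WT library 3 was the lowest of its group for both. Neither passed with the GC trend removed (adjusted p = 0.0578 and 0.0537, edgeR). *Rbm12b2* also shares 651 bases with *Tmem67*, which was lower without overlap but did not pass (log2 fold change -0.684 ± 0.215 (SE), adjusted p = 0.0684, edgeR).

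*Rbm14*, a transcriptional coactivator found in paraspeckles, was at 11.7, 14.2 and 10.2 CPM in the WT libraries and 6.36, 8.82 and 7.08 CPM in those labelled KO (log2 fold change -0.70 ± 0.18 (SE), adjusted p = 0.0428, edgeR). It is rich in GC (56.2%), and its log2 fold change with the GC trend removed was -0.91 (adjusted p = 0.0355, edgeR). Its neighbours *Rbm4*, which did not pass at -0.26 ± 0.25 (SE), and *Rbm4b* lie beside it on chromosome 19. All 3 overlap the readthrough gene *Gm21992*, which was at no more than 1.03 CPM in any library. *Rbm6*, a relative of *Rbm5* and *Rbm10* that was added after its values were seen, was at 36.02, 37.5 and 35.3 CPM against 25.7, 24.1 and 24.1 CPM, in 2 tight groups (log2 fold change -0.56 ± 0.09 (SE), adjusted p = 0.0159, edgeR). It kept its call with the GC trend removed (log2 fold change -0.43, adjusted p = 0.0421).

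Its relatives differed from it in outcome, which was not tested. *Rbm5*, a regulator of splicing in apoptosis genes, was at 64.4, 57.7 and 54.2 CPM in the WT libraries and 46.5, 56.6 and 52.5 CPM in those labelled KO. *Rbm10* was at 22.7, 22.2 and 21.9 CPM against 21.4, 24.99 and 24.4 CPM. The groups overlapped for both, and neither passed (log2 fold changes -0.18 and 0.08).

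*Rbm25*, which acts with the U1 particle, was at 93.5, 98.8 and 95.4 CPM in the WT libraries and 66.2, 66.3 and 64.9 CPM in those labelled KO, where the 3 values lay within 2 CPM of each other (log2 fold change -0.54 ± 0.09 (SE), adjusted p = 0.0161, edgeR). It is poor in GC (37.5%), and with the trend removed its log2 fold change was -0.15 (adjusted p = 0.311, edgeR). *Rbm39*, a relative of the U2 auxiliary factor, was at 128, 143 and 147 CPM against 100.5, 114 and 106 CPM. The groups did not overlap, but it did not pass (log2 fold change -0.39 ± 0.11 (SE), adjusted p = 0.0541, edgeR). *Rbm41* and *Rbm27*, named after their values were seen, fell by 0.67 and 0.54 on the log2 scale (adjusted p = 0.0191 and 0.0240, edgeR), and neither passed with the GC trend removed.

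*Rbm8a*, the exon junction protein Y14, was at 26.3, 23.6 and 24.8 CPM in the WT libraries and 23.3, 23.4 and 20.3 CPM in those labelled KO. *Rbm15*, which guides the m6A writer complex, was at 12.2, 12.4 and 12.5 CPM against 10, 11.5 and 11.2 CPM. These groups did not overlap but the gaps were small, and neither gene passed (-0.15 ± 0.11 and -0.18 ± 0.11, log2 fold change and SE). *Rbm3*, a cold-inducible RNA-binding protein, was higher without overlap, at 28.6, 43.1 and 44.3 CPM against 69.7, 50.7 and 62.05 CPM. WT library 1 was the lowest of all 6 and the library labelled KO 1 the highest. It did not pass the main test (log2 fold change 0.65 ± 0.20 (SE), adjusted p = 0.0606, edgeR) and passed with the GC trend removed (log2 fold change 0.93, adjusted p = 0.0398, edgeR), with DESeq2 (adjusted p = 0.0171) and with limma on log2(FPKM + 1) (adjusted p = 0.0392). *Rbm3os*, which shares 454 bases with it, had 20 counts over all 6 libraries.

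At the low end of the choice, *Rbm47*, *Rbm43* and *Rbm4b* had 79, 387 and 768 counts in all. *Rbm47*, a cofactor of RNA editing, was at 0.561, 0.297 and 0.0872 CPM against 0.120, 0.214 and 0.218 CPM, *Rbm43* at 2.08, 1.80 and 0.750 CPM against 0.803, 1.07 and 0.781 CPM and *Rbm4b* at 2.31, 3.08 and 1.64 CPM against 1.98, 2.77 and 2.36 CPM. All 3 overlapped between groups, and their SEs, 0.69, 0.41 and 0.28 on the log2 scale, were the 3 widest of the 64, so that a difference of the size seen in *Rbm20* was not detectable for *Rbm47* at this depth. Just below the minimum were *Rbm46*, *Rbm3os* and *Rbm11* with 32, 20 and 4 counts. *Rbm31y* had 3, and *Srsf12*, *Rbm44* and *Rbm46os* had 0 in all 6 libraries.

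The 8 other hnRNP genes and the 15 other RBM genes, *Rbm4* among them, did not pass. Among these hnRNP genes the log2 fold changes ran from -0.40 to 0.31, and the smallest adjusted p was 0.0511, for *Hnrnpf* (edgeR). Among the RBM genes they ran from -0.38 to 0.38, and the smallest adjusted p was 0.149, for *Rbm42* (edgeR). The groups did not overlap for 5 of the 8 and for 1 of the 15, beside 40.0% of all genes tested.

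**Figure D3:**
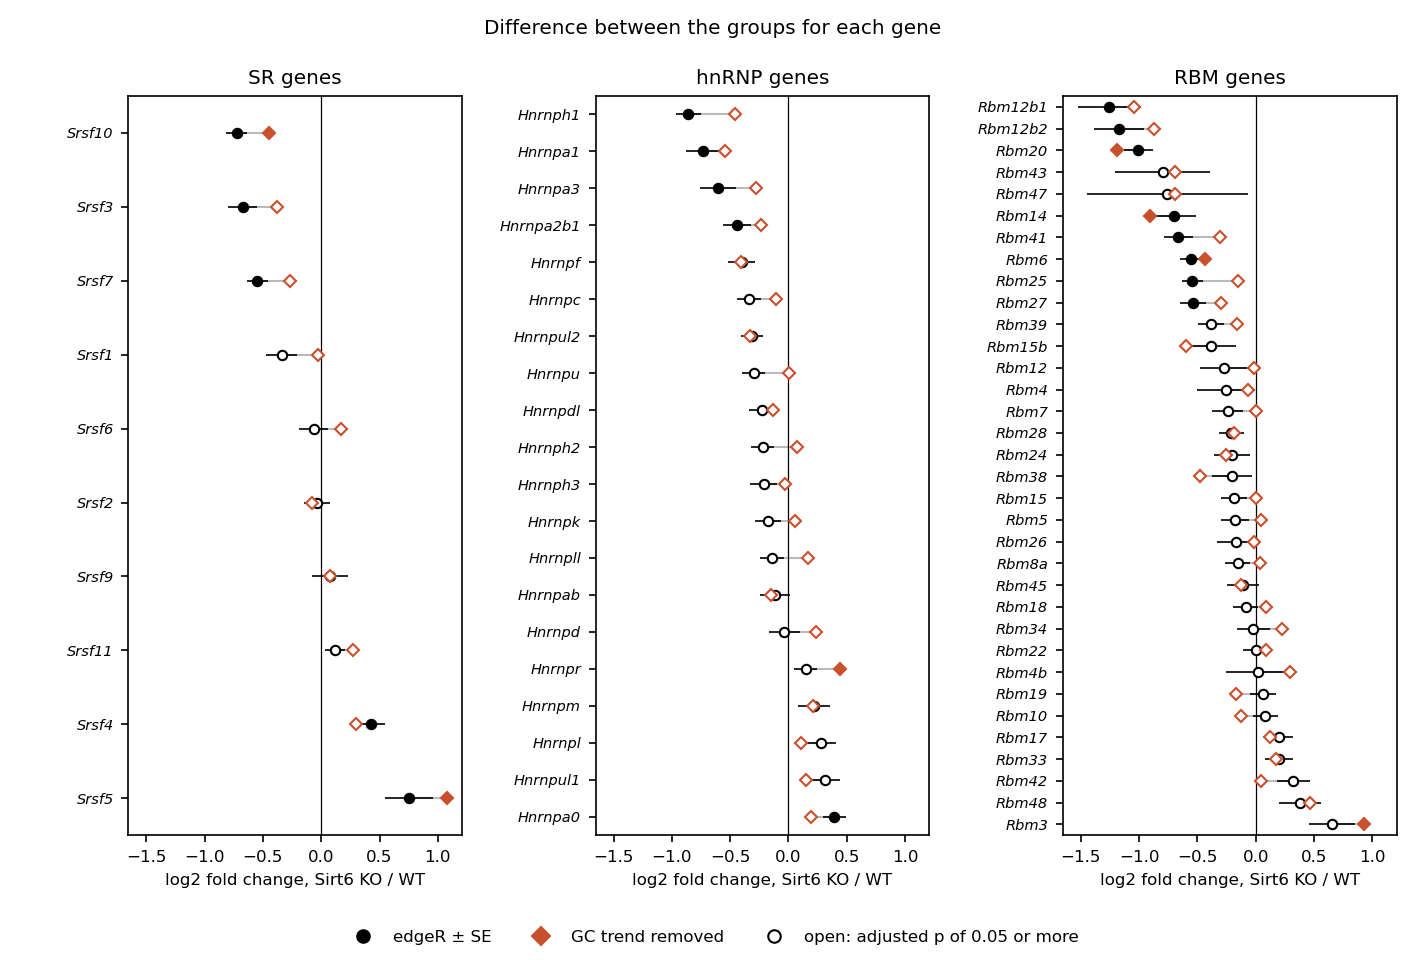
Fitted log2 fold change of the libraries labelled KO over the WT libraries for each of the 64 genes (circles with bars of 1 SE) and after removal of the GC trend (diamonds); filled symbols mark an adjusted p under 0.05 (edgeR). Both symbols are filled for 5 genes, and the hnRNP diamonds lie mostly to the right of their circles.

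Within the families, the median of all 64 genes relative to the WT mean was -0.027, 0.0089 and 0.027 on the log2 scale in the WT libraries and -0.251, -0.128 and -0.154 in those labelled KO, beside -0.014 to 0.024 over all genes in the same libraries. For the 64 together, the 3 libraries labelled KO were below every WT library. The hnRNP genes were at -0.082, 0.020 and 0.032 in the WT libraries against -0.244, -0.191 and -0.237 in those labelled KO, also without overlap. The SR genes overlapped, at -0.026, -0.011 and 0.050 against -0.060, -0.123 and 0.041. The 20 hnRNP genes took 2076, 2210 and 2122 CPM of the WT libraries and 1763, 1750 and 1720 CPM of those labelled KO. The SR genes took 571, 639.8 and 646.5 CPM against 585, 586 and 614 CPM, which overlapped. For the 64 genes together the sums were 3883, 4233 and 4147 CPM against 3432, 3474 and 3470 CPM. The median SD within groups was 0.127 on the log2 scale for these genes and 0.201 for all genes tested, whose median level was lower (11.4 against 39.6 CPM).

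GC content moved with these results. Across the 64 genes the log2 fold change had a Spearman correlation of 0.329 with the GC content of the longest transcript, and across the 13715 tested genes with a known GC content it was 0.334. Genes of 1 library share its depth and preparation, and genes are not replicates. It was 0.517 in the hnRNP genes, 0.321 in the SR genes and 0.225 in the RBM genes. The 64 genes are poor in GC, with a median of 44.2% against 49.8%. Below 42% GC, 8 of 17 fell (47.1%), beside 23.5% of all genes in that range. Between 42% and 45%, 4 of 18 fell (22.2%), beside 14.7%. From 45% to 50%, 1 of 16 fell (6.25%), beside 7.58%, and from 50% upwards 2 of 13 fell (15.4%), beside 3.39%. The 15 genes that fell had a median GC content of 41.6%, with *Rbm14* and *Rbm20* far above the rest. With the trend removed in each library, the median log2 fold change of the 64 was -0.049, and 13 of the 18 genes lost their call. The families then stood at 1 higher and 1 lower among the SR genes and 1 higher and 0 lower among the hnRNP genes. Among the RBM genes 1 was higher and 3 were lower by edgeR. Over all genes 3.43% were higher and 3.54% lower. Of the hnRNP genes, 4 were lower at an unadjusted p under 0.05 in that fit. Whether the relation to GC content arose in the libraries or in the tissue cannot be told apart here.

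**Figure D4:**
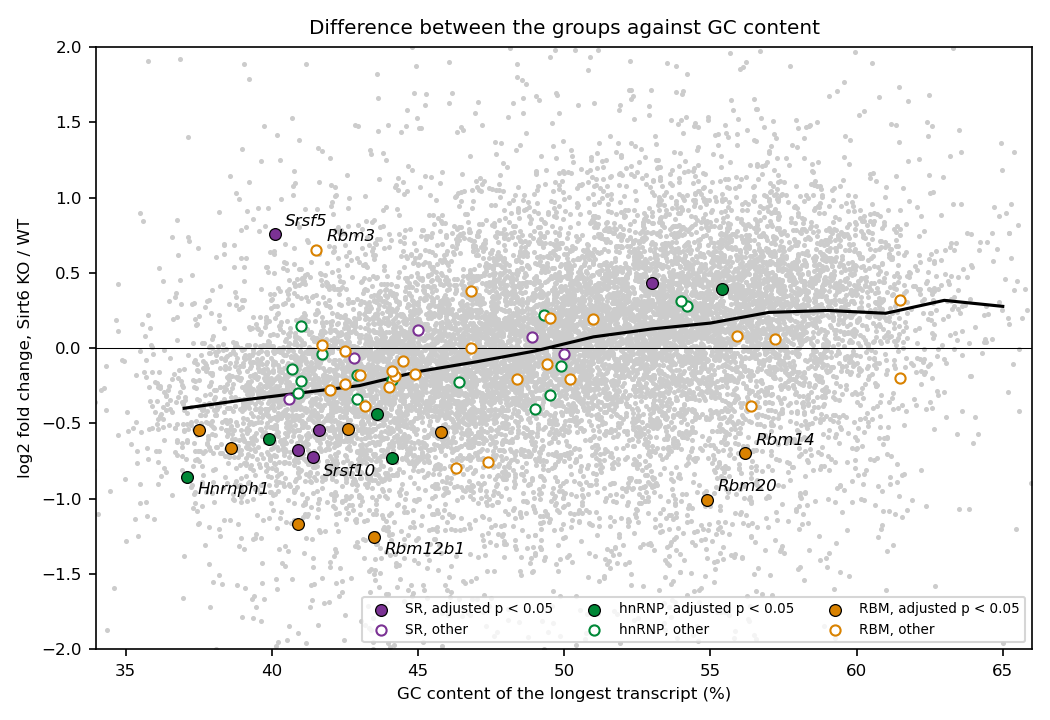
Fitted log2 fold change, libraries labelled KO over WT, against the GC content of the longest transcript, for all tested genes (grey), the running median over GC content (line) and the 64 genes by family (filled where the adjusted p was under 0.05, edgeR); points beyond the axes are not drawn. Most genes that fell lie at the left, below 46% GC, and *Srsf5* and *Rbm3* at the upper left and *Rbm14* and *Rbm20* at the lower right lie away from the line.

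The share of the 64 genes called under each way of processing the counts moved with the share of all genes. It was 37.5% with the Wald test of DESeq2, beside 25.6% of all genes, and 34.4% with limma on log2(FPKM + 1), beside 19.0%. Leaving out WT library 3, the one apart in slow fiber and erythroid markers, gave 22 lower and 8 higher, 46.9% of the 64, beside 32.5% of all genes. Without WT library 1, WT library 2 or the library labelled KO 2, 4, 3 and 6 genes were lower and 0 higher by edgeR (6.25%, 4.69% and 9.38% of the 64), beside 3.15%, 1.78% and 6.21% of all genes in either direction. At an unadjusted p under 0.05, where 4, 5 and 4 of the 64 were higher, the shares in either direction were 42.2%, 40.6% and 35.9%, beside 27.1%, 26.0% and 30.9% of all genes.

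**Figure D5:**
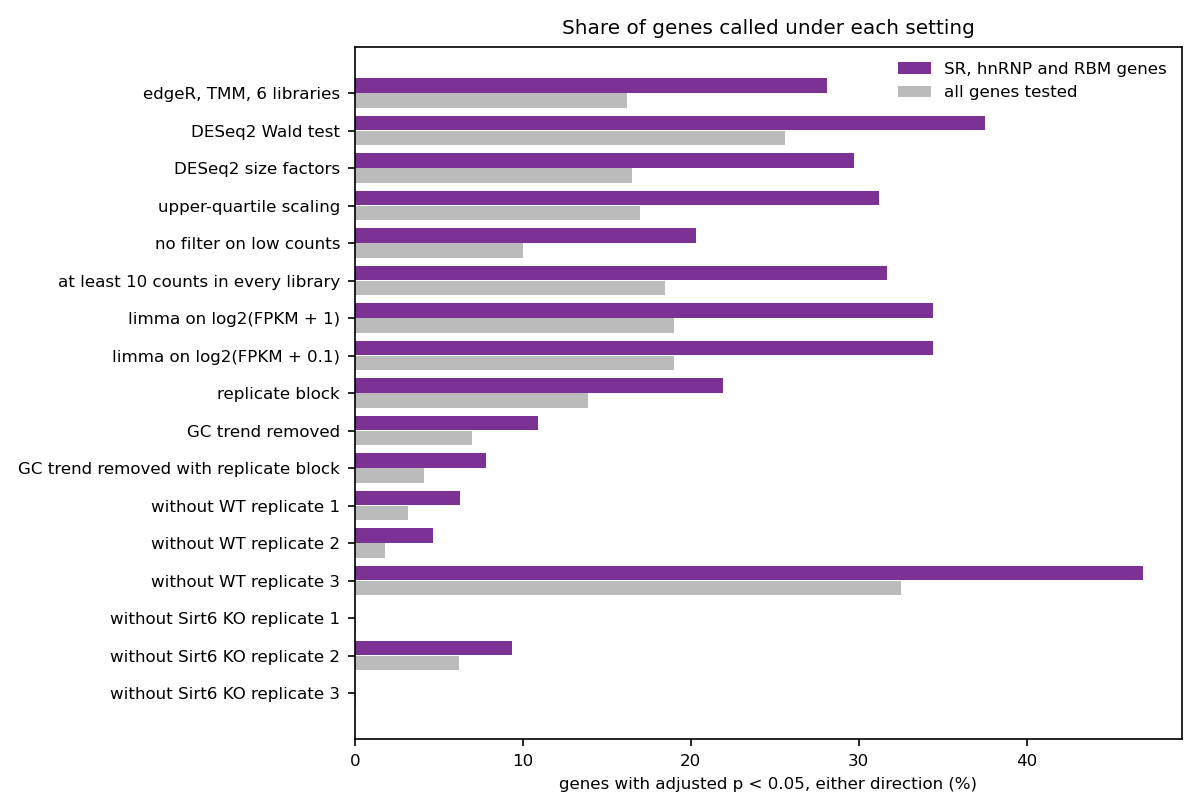
Percent of the 64 genes (purple) and of all genes tested (grey) with an adjusted p under 0.05 in either direction, under each of the 17 ways of processing. The purple bar is the longer wherever any of the 64 was called, and no gene of the 64 was called without the library labelled KO 1 or without KO 3.

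The core of the spliceosome was looked at beside the 64 genes. Of 52 genes for proteins of the U1, U2, U4/U6 and U5 particles and the PRP19 complex, 13 rose (25.0%) and 6 fell (11.5%). Over all genes tested 7.85% rose and 8.39% fell. The 52 had a median log2 fold change of 0.125, against -0.204 in the 64. *U2af2*, which binds the polypyrimidine tract, rose from 38.5, 39.5 and 40.5 CPM to 54.8, 53.8 and 58.3 CPM, and *Xab2*, of the PRP19 complex, from 12.01, 12.9 and 16.3 CPM to 22.5, 23.98 and 23.3 CPM (log2 fold change 0.49 ± 0.09 (SE), adjusted p = 0.0186 and log2 fold change 0.76 ± 0.14 (SE), adjusted p = 0.0180, edgeR). *Luc7l*, a U1 protein, and *Snrnp27*, of the tri-snRNP, fell by 0.58 and 0.61 on the log2 scale (adjusted p = 0.0166 and 0.0180, edgeR). *Luc7l* and *Snrnp27* also fell with the GC trend removed (adjusted p = 0.0358 and 0.0380, edgeR), while *U2af2* and *Xab2* did not pass (adjusted p = 0.0665 and 0.0538, edgeR). In that fit 3 of the 52 rose and 2 fell, beside 3.43% and 3.54% of all genes. The difference between the lists was not tested.

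Among 12 genes for the kinases that phosphorylate SR proteins and for protein phosphatase 1, 2 fell and 0 rose by edgeR. That is 16.7% in either direction, beside 16.2% of all genes tested. At an unadjusted p under 0.05, 3 were higher, and DESeq2 called 0 higher. *Ppp1cb*, a catalytic subunit of the phosphatase, was at 498, 535 and 535 CPM in the WT libraries and 286, 327 and 322 CPM in those labelled KO (log2 fold change -0.75 ± 0.12 (SE), adjusted p = 0.0150, edgeR). *Prpf4b*, a kinase of the spliceosome, fell by 0.37 on the log2 scale (adjusted p = 0.0434, edgeR). Neither passed with the GC trend removed.

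Of 50 tested regulators of alternative splicing outside the 3 families, 10 fell (20.0%) and 3 rose (6.0%). Over all genes tested 8.39% fell and 7.85% rose. The 50 had a median log2 fold change of -0.172. *Ptbp3*, a polypyrimidine tract binder, was at 19.97, 22.1 and 11.3 CPM in the WT libraries and 6.82, 7.11 and 7.52 CPM in those labelled KO (log2 fold change -1.31 ± 0.24 (SE), adjusted p = 0.0184, edgeR). *Mbnl2*, a muscleblind protein of the kind that sets the adult splicing pattern of muscle, was at 286, 382 and 288 CPM against 161, 178 and 165 CPM (log2 fold change -0.92 ± 0.15 (SE), adjusted p = 0.0150, edgeR). Its relatives *Mbnl1* and *Mbnl3*, added after their values were seen, did not pass (adjusted p = 0.436 and 0.840, edgeR). *Mbnl1* was at 414, 430 and 564 CPM against 452, 355 and 421 CPM, and *Mbnl3* was at no more than 0.363 CPM in any library. The paraspeckle protein *Sfpq* was at 79.6, 83.2 and 69.2 CPM against 46.00, 47.2 and 46.5 CPM and the nuclear matrix protein *Matr3* at 100.4, 113 and 104 CPM against 58.2, 70.5 and 64.5 CPM, and both fell (adjusted p = 0.0132 and 0.0144, edgeR). *Mbnl2* and *Sfpq* also fell with the GC trend removed, while *Ptbp3* and *Matr3* did not pass. *Cirbp*, named after its values were seen because it is cold-inducible like *Rbm3*, rose from 11.8, 15.99 and 19.96 CPM to 39.6, 31.9 and 29.8 CPM (log2 fold change 1.08 ± 0.21 (SE), adjusted p = 0.0196, edgeR), and also rose with the GC trend removed (log2 fold change 0.93, adjusted p = 0.0441, edgeR).

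Of 15 genes of the exon junction complex and nonsense-mediated decay, the route by which many SR and hnRNP mRNAs are removed, 2 rose and 1 fell. That is 20.0% in either direction, beside 16.2% of all genes tested. *Eif4a3*, the helicase of the junction complex, rose from 20.2, 23.8 and 23.8 CPM to 34.4, 36.5 and 35.5 CPM (log2 fold change 0.65 ± 0.11 (SE), adjusted p = 0.0155, edgeR), and *Upf1*, the helicase of the decay, from 33.7, 28.5 and 37.2 CPM to 49.7, 43.5 and 53.1 CPM (log2 fold change 0.56 ± 0.13 (SE), adjusted p = 0.0344, edgeR). *Smg1*, the kinase that phosphorylates UPF1, fell by 0.47 on the log2 scale (adjusted p = 0.0343, edgeR). *Eif4a3* alone of the 3 passed with the GC trend removed. Of 6 genes of the m6A writer complex, with which *Rbm15* works, edgeR called 0, beside 16.2% of all genes tested. None of the 6 had an unadjusted p under 0.05, and DESeq2 called 0.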

How the data were processed

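The authors sequenced poly(A) RNA from 6 gastrocnemius muscles, 3 per group, with paired-end reads of 100 bases. The submitters' processing notes name HISAT2 2.1.0, Bowtie2 2.3.4.1 and StringTie 2.1.3b, the reporting summary names STAR, and the build was mm10. The labels and the methods name different TruSeq kits, the flox line named in the methods is not the one in the reporting summary, and the use of strand in counting is not given in the sources used here. The authors deposited 1 table with whole read counts, not normalized, for each gene. Beside the counts the authors gave FPKM, which corrects for gene length and library size. The deposited TPM values, which sum to nearly the same total in every library, were not used.

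Counts of all 24532 genes were fitted by edgeR 4.0.16 under R 4.3.3, after filterByExpr (13801 genes kept; 7342 had no count), with TMM factors between 0.909 and 1.11 and a quasi-likelihood F test on the group alone; p-values were Benjamini-Hochberg adjusted over all genes tested, with 0.05 as the threshold. Levels are TMM-normalized CPM, ± is the SD over 3 libraries, and each SE was derived from the fold change and the test's F. Each library is 1 animal, and depth, between 44845763 and 63016899 counts, sets the counting error. FPKM values served to compare levels between genes and for limma 3.58.1 on quantile-normalized log2(FPKM + 1), with log2(FPKM + 0.1) as an alternative. The other alternatives were DESeq2 1.42.0 (Wald test), DESeq2 size factors, upper-quartile scaling, no filter, at least 10 counts in every library, the replicate number as a block, a lowess trend (span 0.3) over GC content removed per library with and without that block, and each library left out in turn. GC content was that of the longest GENCODE M21 transcript, known for 13715 of the tested genes (99.4%) and all 64 described here. Coordinates are those of RefSeq on GRCm38.p6, matched by NCBI gene identifier. The fits were tested on simulated data. At a simulated log2 change of 1, edgeR recovered 34.5% of the changed genes, and 4.29% of its calls were false. DESeq2 recovered 58.2%, and 26.1% of its calls were false. With an imposed GC trend and a log2 change of 2, 36% of the edgeR calls were false without the correction and 6.11% with it.

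The members, the lists of other splicing genes and of cell type markers, and the rule for named genes were chosen with earlier results of these data known. The rule gave values by library for a fixed set of members, for the 4 with the largest change and the 1 with the smallest adjusted p in each family, for those with the highest and lowest FPKM and for those next to the minimum of 60 counts, and up to 4 genes by adjusted p from each other list. The text says where a gene outside it was picked with its values in view.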

Additional observations from a re-analysis of the deposited data

How the results depend on the processing

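The 15 lower and 3 higher calls among the 64 genes moved little with DESeq2 size factors (16 and 3), upper-quartile scaling (17 and 3) and at least 10 counts in every library (17 and 3). With the DESeq2 Wald test there were 20 lower and 4 higher, and 1801 lower and 1730 higher over all genes against 1158 and 1084. No filter gave 12 lower and 1 higher. Limma with a pseudocount of 1 or of 0.1 gave 17 lower and 5 higher, and the median log2 fold change was -0.146 with the former. With the GC trend removed, 4 were lower and 3 higher, the median was -0.049, and 485 and 471 genes were called overall. Leaving out each library in turn gave 0 to 22 lower and 0 to 8 higher among the 64. Over all genes these fits gave 2 to 2219 lower and 6 to 2363 higher. The log2 fold change of *Sirt6* ran from 1.37 to 1.55, and *Sirt6* did not pass without the library labelled KO 1 or KO 3. Why the calls differed between these fits was not tested. Depth limits the genes near the minimum of 60 counts.

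The replicate number gave no evidence of pairing, since libraries with the same number correlated at -0.106, 0.260 and 0.161, and not every library correlated best with its own number. With the replicate number as a block, 13 of the 64 were lower and 1 higher, and with the block and the GC trend removed 4 were lower and 1 higher, with a median of -0.034 and 320 and 244 genes called overall.

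Genes that reversed were not called in the main analysis. Removing the GC trend changed the sign of 14 of the 64, 8 named by the rule, given here, and 6 others (*Hnrnph2*, *Hnrnpll*, *Rbm7*, *Rbm18*, *Rbm19* and *Rbm34*). *Srsf2* came to 0.0034 and 0.0035 with limma at the pseudocounts of 1 and 0.1. After removal of the GC trend, and with the block added, log2 fold changes were 0.236 and 0.243 for *Hnrnpd*, 0.053 and 0.055 for *Hnrnpk*, 0.00032 and 0.00041 for *Hnrnpu*, -0.125 and -0.128 for *Rbm10*, 0.0028 and 0.00075 for *Rbm15*, 0.047 in both for *Rbm5*, 0.035 and 0.033 for *Rbm8a*, and 0.167 and 0.171 for *Srsf6*. Leaving out a library gave -0.100 to 0.015 for *Srsf2*, -0.026 to 0.162 for *Srsf9*, -0.103 to 0.098 for *Hnrnpd*, -0.178 to 0.267 for *Rbm4b* and -0.128 to 0.036 for *Srsf6*. The cause of these reversals was not tested.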
